A study of Mus musculus with 13 samples.

Results

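Schwann cell (SC) adhesion molecule genes were followed through nerve injury and loss of the mTORC1 subunit Raptor. The 10 genes are Cadm1, Cadm2, Cadm3 and Cadm4 of the nectin-like (Cadm) family, Ncam1, the L1 family genes L1cam and Chl1, and the cadherin genes Cdh1, Cdh2 and Cdh19. They were listed by name, as adhesion genes that mark myelinating, nonmyelinating or immature SCs, when earlier results of these data were known. All 10 were found among the 40787 genes of the table, and all 10 passed the filter on low counts, which 12851 genes passed over the 13 libraries.

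RNA was sequenced from whole sciatic nerves of mice labelled C57BL/6, a floxed line backcrossed to that background, at 5 days post-crush (dpc), with 1 library per nerve and the epineurium removed. Controls were Cre-negative mice with Rptor flox/flox alleles, and RaptorKOs carried the same floxed alleles with a tamoxifen-inducible Cre transgene that acts in SCs. Both genotypes received tamoxifen when 2 months old, and 1 sciatic nerve was crushed 2 months later. Injured nerves were taken distal to the crush (3 control and 3 RaptorKO libraries), and the uncrushed nerves of the other side served as contralateral nerves (3 control and 4 RaptorKO libraries). Only RaptorKOs carried the Cre transgene, so an effect of Cre and one of Raptor loss cannot be told apart. Each library holds RNA from SCs and from all other cell types of the nerve, and fewer cells of a type and less RNA per cell cannot be told apart.

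Adhesion molecules hold the SC to its axon and hold the layers of 1 SC together. Cadm proteins are immunoglobulin-type molecules that bind each other across the gap between axon and internode, where Cadm4 is the main partner on the SC side. Ncam1 and L1cam proteins are carried by immature and nonmyelinating SCs and are lost from the surface of SCs that myelinate, and Chl1 is the close homologue of L1. E-cadherin, the product of Cdh1, builds the junctions between membrane layers of the myelinating SC at paranodes and incisures, whereas N-cadherin, the product of Cdh2, joins immature SCs to each other and to axons. Cdh19 is a cadherin gene known as a marker of the SC lineage from its precursors on.

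Promoter sequences are shown for Cadm2, Cadm3 and Cadm4, since these 3 genes of 1 family fell together after crush, as described below. Each window runs from 250 bases before to 50 bases after the annotated start of the gene (RefSeq, GRCm38.p6), 5′ to 3′ on the strand of the gene. Capitals mark the AP-1 motif TGANTCA, the NF-Y motif CCAAT and the SOX motif ACAANG on either strand, none of which overlapped another here. The windows are chr16:67620859-67621158 for Cadm2, chr1:173367646-173367945 for Cadm3 (both on the minus strand) and chr7:24481773-24482072 for Cadm4 (plus strand).

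Cadm2: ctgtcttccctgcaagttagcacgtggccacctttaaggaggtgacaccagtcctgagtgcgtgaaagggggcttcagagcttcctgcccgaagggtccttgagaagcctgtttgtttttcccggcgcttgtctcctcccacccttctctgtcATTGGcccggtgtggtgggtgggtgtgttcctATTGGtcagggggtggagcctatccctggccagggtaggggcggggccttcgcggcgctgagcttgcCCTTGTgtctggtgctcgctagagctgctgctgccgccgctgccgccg

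Cadm3: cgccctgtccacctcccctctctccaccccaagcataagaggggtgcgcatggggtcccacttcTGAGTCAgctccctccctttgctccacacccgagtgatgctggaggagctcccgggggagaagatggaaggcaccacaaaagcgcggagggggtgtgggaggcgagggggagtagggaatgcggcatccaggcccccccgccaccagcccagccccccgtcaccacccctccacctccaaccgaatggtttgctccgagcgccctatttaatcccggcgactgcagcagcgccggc

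Cadm4: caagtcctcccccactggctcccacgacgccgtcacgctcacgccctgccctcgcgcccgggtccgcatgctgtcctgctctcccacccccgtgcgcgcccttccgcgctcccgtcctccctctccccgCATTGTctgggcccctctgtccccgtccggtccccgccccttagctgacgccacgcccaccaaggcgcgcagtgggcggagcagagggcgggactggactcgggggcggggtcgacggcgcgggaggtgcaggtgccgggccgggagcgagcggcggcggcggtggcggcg

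The Cadm3 window held 1 AP-1 match, 186 bases before the start. The Cadm2 window held 2 NF-Y matches, 97 and 65 bases before the start, and 1 SOX match just after it, and the Cadm4 window held 1 SOX match, 121 bases before the start. Thus none of the 3 motifs was found in all 3 windows. Among all 32851 windows of the table, 7.81% held an AP-1 match, 37.4% an NF-Y match and 41.2% a SOX match. A match describes letters and is not evidence of binding. Of the genes that rose after crush, the Chl1 window held 1 SOX match and no match to the other motifs, the 2 windows of L1cam held 1 SOX match each, and 1 of them also held an NF-Y match, 239 bases before the start.

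Library totals ranged from 8200458 to 13581775 counts, and levels are in CPM, the count of a gene per 1000000 counts of its library after scaling with TMM factors. Rptor averaged 49.7 ± 4.99 CPM in control contralateral (SD, n = 3), 24.6 ± 2.58 in RaptorKO contralateral (n = 4), 42.3 ± 6.83 in control injured (n = 3) and 26.1 ± 2.73 in RaptorKO injured nerves (n = 3), and the genotypes did not overlap in either kind of nerve. The tissue label was met by SC markers: the summed level of 10 myelinating SC genes was 77200 to 101000 CPM in contralateral nerves. It was 2390 to 3740 CPM in injured nerves, where the summed macrophage markers were 1620 to 3370 CPM against 146 to 304 CPM in contralateral nerves. Epithelial markers, which would accompany Cdh1 in epithelium, summed to at most 2.11 CPM in any library. The pair of libraries numbered control 3 stood apart in sex-linked genes, and L1cam lies on the X chromosome.

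Levels of different genes were compared per kilobase of exon, in CPM per kb. In uninjured control nerves the order ran from Cadm4 (592 ± 14.2 CPM per kb, SD, n = 3) through Cadm3 (189 ± 9.56), Cdh19 (123 ± 8.52), Cdh1 (79.6 ± 4.91), Cdh2 (21.3 ± 0.725), Chl1 (15.5 ± 0.638), L1cam (14.9 ± 1.75), Ncam1 (12.9 ± 0.532) and Cadm2 (10.4 ± 0.283) to Cadm1 (7.49 ± 0.887). Chl1 and L1cam overlapped and all other neighbours in this order did not. Injured control nerves gave another order. Cadm4 (169 ± 33.4 CPM per kb) and Cdh19 (135 ± 22.6) overlapped at the top, and L1cam (24.8 ± 2.08), Chl1 (24.3 ± 2.48) and Cadm1 (18.9 ± 0.359) came next, while Cdh1 (2.18 ± 0.228) and Cadm2 (1.51 ± 0.205) stood last. RaptorKO contralateral nerves kept Cadm4 (499 ± 62.1 CPM per kb, SD, n = 4) and Cadm3 (142 ± 12.9) at the top, but Cdh1 (55.9 ± 7.1) and Cdh19 (49.7 ± 6.79) overlapped there and Cdh2 stood eighth of the 10, at 8.15 ± 1.42 CPM per kb.

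**Figure D1:**
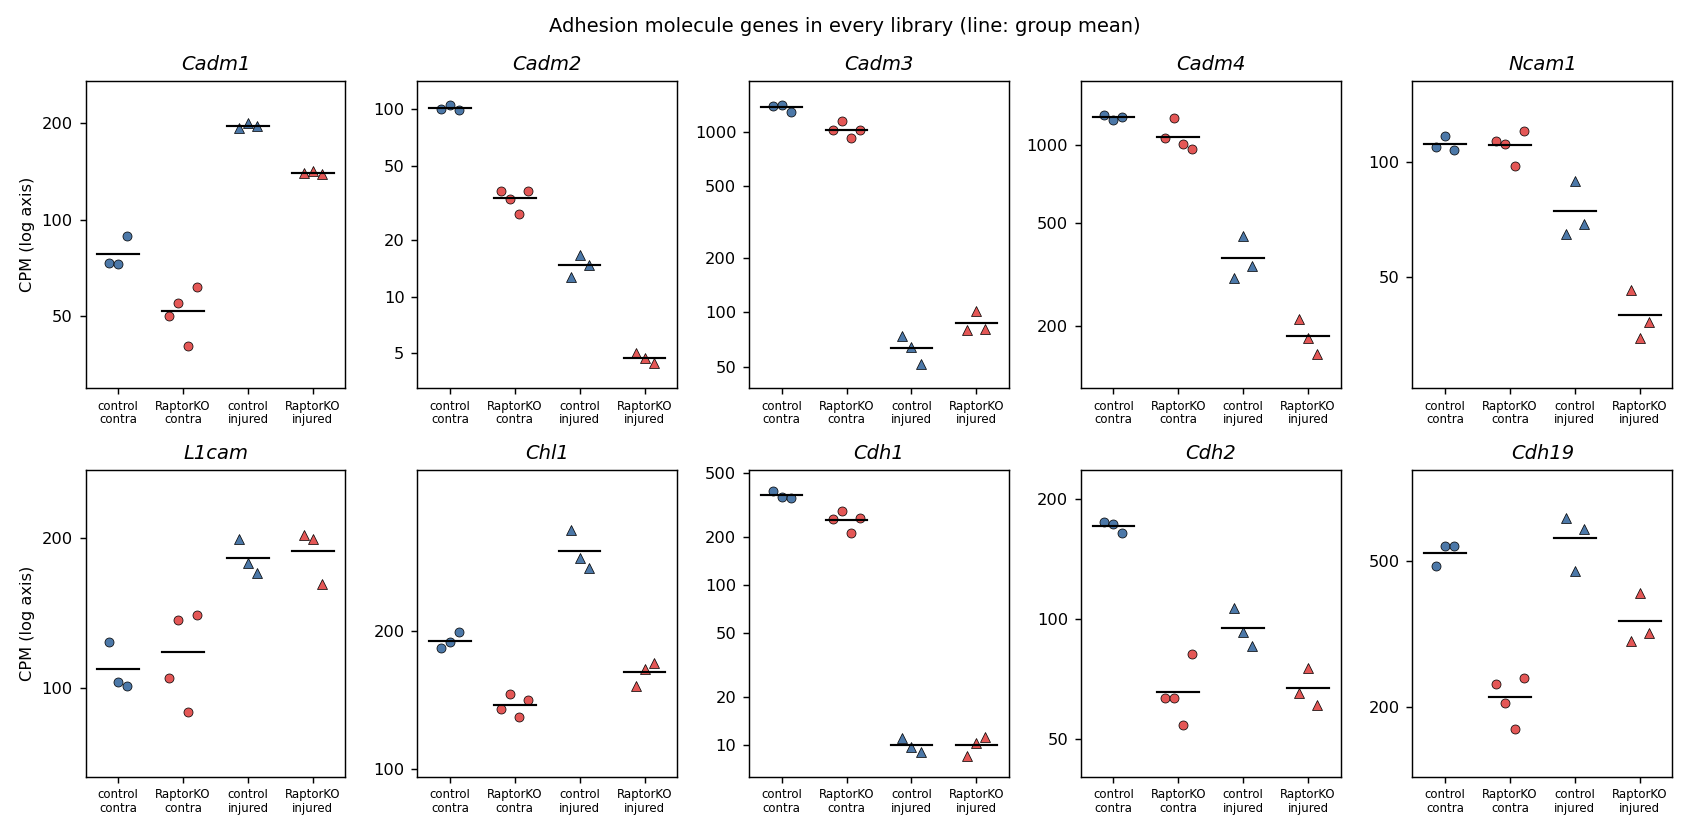
CPM of the 10 genes in each of the 13 libraries (points; circles are contralateral and triangles injured nerves; blue are controls and red RaptorKOs) with the group mean (line), on a log axis that has its own range in each panel. Cadm2, Cadm3, Cadm4 and Cdh1 are lower in every injured library than in any contralateral one, Cadm1 is higher in every injured library, and Cadm2 is lower in RaptorKOs than in controls in both kinds of nerve.

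After crush, control nerves lost most transcripts of Cdh1 and Cadm3 and gained Cadm1. Cdh1, Cadm3, Cadm2, Cadm4, Cdh2 and Ncam1 fell and Cadm1, L1cam and Chl1 rose in control injured against control contralateral nerves, whereas Cdh19 did not pass the test. This made 6 genes lower and 3 higher of 10, in a comparison in which 32.9% of 12430 tested genes were called lower and 32.4% higher. A gene was called when it differed by more than 1.2-fold and had an adjusted p below 0.05 over all tested genes by the quasi-likelihood test of edgeR. The median log2 fold change of the 10 genes was -0.74 and that of all tested genes was 0. Every injured library was below every contralateral one for the 6 genes that fell and above for the 3 that rose, as it was for 34.7% (lower) and 36.2% (higher) of all tested genes. In RaptorKOs 5 genes fell and 3 rose after crush, where 28.5% of 12515 tested genes were called lower and 30.5% higher. The libraries did not overlap for 5 genes that were lower and 4 that were higher there, against 28.8% and 31.7% of all tested genes.

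Of the Cadm genes, Cadm3 (ENSMUSG00000005338, chr1:173333258-173367695) changed most. It had 1400, 1420 and 1290 CPM in the 3 control contralateral libraries and 74.1, 63.8 and 51.4 CPM in the 3 control injured libraries. The fall was 22.1-fold in controls (log2 fold change -4.47, SE 0.15, adjusted p = 2.1e-10), and in RaptorKOs it was 11.8-fold (log2 fold change -3.56, SE 0.14, adjusted p = 1.35e-08). Cadm3 shares 361 bases of exon with Ackr1, a chemokine receptor gene on the same strand, which had 66.8 to 73.9 CPM in control contralateral, 36.8 to 48.3 in RaptorKO contralateral, 14.0 to 17.4 in control injured and 18.2 to 23.1 CPM in RaptorKO injured nerves. Per kilobase Ackr1 was below Cadm3 in control contralateral nerves (50.8 ± 2.81 against 189 ± 9.56 CPM per kb, SD, n = 3) but not in control injured nerves (11 ± 1.25 against 8.71 ± 1.57). The part of shared reads in the values of Cadm3 was not tested.

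Cadm2 (ENSMUSG00000064115, chr16:66655421-67620908) had 101, 105 and 99.6 CPM in control contralateral and 12.7, 16.8 and 14.8 CPM in control injured libraries. It fell 7.01-fold in controls (log2 fold change -2.81, SE 0.12, adjusted p = 1.42e-09) and 7.13-fold in RaptorKOs (-2.83, SE 0.17, adjusted p = 2.08e-07). Cadm4 (ENSMUSG00000054793, chr7:24482023-24504539), the SC partner in contact with the axon, had 1310, 1250 and 1280 CPM in control contralateral and 307, 446 and 343 CPM in control injured libraries. The fall of Cadm4 was 3.57-fold in controls (log2 fold change -1.83, SE 0.14, adjusted p = 2.05e-07) and 5.91-fold in RaptorKOs (-2.56, SE 0.14, adjusted p = 1.51e-07).

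Cadm1 (ENSMUSG00000032076, chr9:47530173-47857637) was the 1 Cadm gene that rose. Its values were 73.0, 72.7 and 88.9 CPM in control contralateral libraries against 194, 201 and 196 CPM in control injured libraries. The rise was 2.48-fold in controls (log2 fold change 1.31, SE 0.093, adjusted p = 1.43e-07) and 2.71-fold in RaptorKOs (1.44, SE 0.13, adjusted p = 5.04e-06). The family therefore split after crush in both genotypes, with 3 genes down and 1 up.

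The genes that mark immature and nonmyelinating SCs did not move as 1 group. L1cam (ENSMUSG00000031391, chrX:73853778-73896105) had 124, 103 and 101 CPM in control contralateral and 199, 178 and 170 CPM in control injured libraries. It rose 1.64-fold in controls (log2 fold change 0.71, SE 0.1, adjusted p = 6.37e-05) and 1.59-fold in RaptorKOs (0.67, SE 0.16, adjusted p = 0.00403), and all libraries of an injured group were above those of its contralateral group. L1cam shares 100 bases of exon with Arhgap4 on the same strand, which had 2.14 to 6.73 CPM in contralateral and 15.2 to 24.4 CPM in injured nerves, and whether reads were shared was not tested. Chl1 (ENSMUSG00000030077, chr6:103510586-103750211) had 183, 189 and 199 CPM in control contralateral and 332, 288 and 274 CPM in control injured libraries, a 1.54-fold rise (log2 fold change 0.62, SE 0.1, adjusted p = 1.94e-04).

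In RaptorKOs Chl1 went from 135, 146, 130 and 141 to 152, 165 and 170 CPM. These groups did not overlap and the adjusted p was 0.0376, but the fold of 1.18 was under the threshold (log2 fold change 0.23, SE 0.087). Without RaptorKO injured 1 Chl1 was called (log2 fold change 0.28, adjusted p = 0.0457). Ncam1 (ENSMUSG00000039542, chr9:49502136-49798925) moved the other way from L1cam and Chl1. It fell from 110, 117 and 108 CPM to 64.8, 89.2 and 69.1 CPM in controls, a 1.53-fold fall (log2 fold change -0.61, SE 0.12, adjusted p = 6.11e-04), and it fell 2.81-fold in RaptorKOs (-1.49, SE 0.13, adjusted p = 3.04e-06).

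Among the cadherins, Cdh1 (ENSMUSG00000000303, chr8:106603351-106670246) had the largest change of the 10 genes. It had 389, 355 and 348 CPM in control contralateral libraries and 11.1, 9.76 and 9.05 CPM in control injured libraries. Cdh1 fell 37.1-fold in controls (log2 fold change -5.21, SE 0.12, adjusted p = 4.4e-11), and 0.619% of all tested genes had a lower log2 fold change. In RaptorKOs the fall was 25.5-fold (log2 fold change -4.67, SE 0.15, adjusted p = 5.99e-09). The fall of Cdh1 thus exceeded that of every Cadm gene in both genotypes.

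Cdh2 (ENSMUSG00000024304, chromosome 18), the N-cadherin gene, had 176, 174 and 165 CPM in control contralateral and 107, 93.1 and 85.9 CPM in control injured libraries. It fell 1.83-fold in controls (log2 fold change -0.88, SE 0.09, adjusted p = 3.87e-06) and was not called in RaptorKOs (0.03, SE 0.14, adjusted p = 0.867), where the injured and contralateral ranges overlapped. Cdh19 (ENSMUSG00000047216, chr1:110888326-110977584) was called in RaptorKOs and not in controls. It had 483, 546 and 546 CPM in control contralateral and 653, 468 and 609 CPM in control injured libraries, which overlapped (log2 fold change 0.11, SE 0.13, adjusted p = 0.476). In RaptorKOs Cdh19 rose 1.61-fold (log2 fold change 0.68, SE 0.14, adjusted p = 0.00149). Whether these changes differed between genotypes was tested with the interaction, given below.

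**Figure D2:**
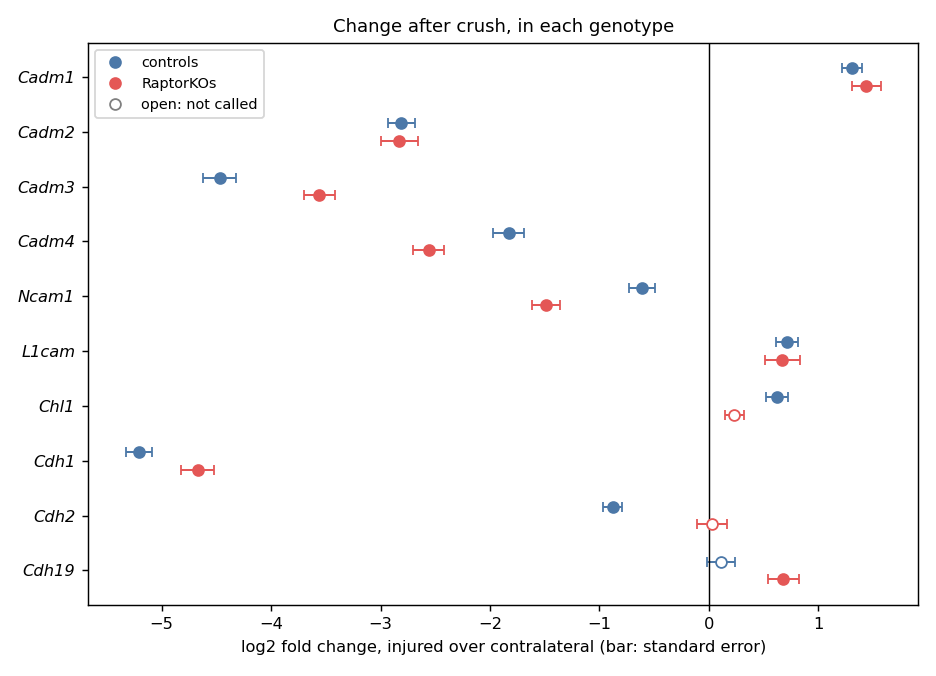
Log2 fold change of injured over contralateral nerves (x axis; points with SE) for the 10 genes in controls (blue) and RaptorKOs (red), with open points for genes that were not called. Cdh1 and Cadm3 lie farthest to the left in both genotypes, and the genotypes stand apart most for Cadm3, Cdh2, Ncam1 and Cadm4.

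The next comparison asked how loss of Raptor changed these genes in uninjured nerves. In contralateral nerves Cadm2, Cdh2 and Cdh19 were 2.99-fold, 2.58-fold and 2.44-fold lower in RaptorKOs than in controls. Cadm1, Cdh1, Chl1 and Cadm3 were lower too, by 1.31-fold to 1.49-fold, and Cadm4, Ncam1 and L1cam were not called. This gave 7 of 10 genes lower and 0 higher, where 5.68% of 11878 tested genes were called lower and 4.49% higher. For the same 7 genes every RaptorKO library was below every control library, as for 13.7% of all tested genes, and no member was above in every library, as for 9.98% of all tested genes. The median log2 fold change was -0.47 for the 10 genes and 0.01 for all tested genes.

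Cadm2 had 36.9, 33.3, 27.6 and 36.7 CPM in the 4 RaptorKO contralateral libraries, where the lowest control had 99.6 CPM (log2 fold change -1.58, SE 0.11, adjusted p = 6.07e-05). Of all tested genes 0.177% had a lower log2 fold change. Cdh2 had 63.4, 63.5, 54.3 and 81.6 CPM, below the lowest control at 165 CPM (log2 fold change -1.37, SE 0.12, adjusted p = 1.1e-04). Cdh19 had 231, 205, 175 and 240 CPM, below the lowest control at 483 CPM (log2 fold change -1.29, SE 0.11, adjusted p = 8.75e-05). For each of these 3 genes the highest RaptorKO library was well below the lowest control.

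Chl1 was 1.36-fold lower (log2 fold change -0.45, SE 0.075, adjusted p = 0.00453). Like Cadm2, Cdh2 and Cdh19, it kept its call without any single library. The other 3 calls were lost when certain single libraries were left out, at log2 fold changes that stayed between -0.68 and -0.47 for Cadm1, -0.56 and -0.4 for Cdh1 and -0.46 and -0.34 for Cadm3. Cadm1 had 49.9, 55.0, 40.2 and 61.7 CPM in RaptorKOs (log2 fold change -0.58, SE 0.14, adjusted p = 0.0296), and its adjusted p was 0.074 when RaptorKO contralateral 1 was left out and 0.0723, 0.0758 and 0.11 for control contralateral 1, 2 and 3. Cdh1 had 258, 291, 212 and 262 CPM (-0.49, SE 0.11, adjusted p = 0.0175), with an adjusted p of 0.0807 and 0.0646 without control contralateral 1 and 2. Cadm3 had 1020, 1150, 925 and 1020 CPM (-0.39, SE 0.091, adjusted p = 0.0224), with an adjusted p of 0.0879, 0.11 and 0.0655 without control contralateral 1, control contralateral 2 and RaptorKO contralateral 1. The number of called genes was then 4 without control contralateral 1 or 2, and the 3 genes stayed lower in each of these fits.

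The 3 genes that were not called in contralateral nerves came from different families. Cadm4 had 1070, 1270, 1010 and 969 CPM in RaptorKOs, of which the second fell among the controls (log2 fold change -0.23, SE 0.1, adjusted p = 0.19). Without RaptorKO contralateral 2 Cadm4 was called lower (-0.32, adjusted p = 0.0265). Ncam1 had 114, 112, 97.6 and 121 CPM (log2 fold change 0.01, SE 0.09, adjusted p = 0.951) and L1cam 105, 137, 89.8 and 140 CPM (0.13, SE 0.16, adjusted p = 0.68), and both overlapped the controls.

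The same question was then asked of injured nerves. Cadm2 was 3.1-fold lower in RaptorKO injured than in control injured nerves, Cadm4 1.97-fold, Ncam1 1.86-fold and Chl1 1.81-fold. Cdh19, Cdh2 and Cadm1 were 1.66-fold, 1.4-fold and 1.39-fold lower, and Cadm3, L1cam and Cdh1 were not called. The count was 7 of 10 lower and 0 higher, where 4.44% of 12040 tested genes were called lower and 4.09% higher. Libraries did not overlap for 7 genes that were lower and 1 that was higher (Cadm3), against 14.6% and 11.7% of all tested genes. The median log2 fold change of the 10 genes was -0.61, and that of all tested genes was 0.

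Cadm2 had 5.0, 4.74 and 4.41 CPM in RaptorKO injured libraries, below the lowest control at 12.7 CPM (log2 fold change -1.63, SE 0.22, adjusted p = 0.00153). Cadm4 had 213, 180 and 156 CPM against 307 CPM in the lowest control (-0.98, SE 0.16, adjusted p = 0.00405). Ncam1 had 46.3, 34.6 and 38.2 CPM against 64.8 CPM in the lowest control (-0.89, SE 0.15, adjusted p = 0.00497). Chl1, at 152 to 170 CPM, did not reach the lowest control at 274 CPM (-0.86, SE 0.11, adjusted p = 0.0014). These 4 genes kept their calls without any single library.

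Cdh19 had 303, 408 and 317 CPM (log2 fold change -0.73, SE 0.16, adjusted p = 0.0156), and its adjusted p was 0.0548, 0.0519 and 0.0791 when control injured 1, control injured 3 or RaptorKO injured 1 was left out. Cadm1 had 140, 142 and 139 CPM, with the lowest coefficient of variation of the 10 genes in that group, 1.03% (-0.47, SE 0.094, adjusted p = 0.0114), with an adjusted p of 0.0587 and 0.0544 without control injured 2 and RaptorKO injured 1. Cdh2 had 65.4, 75.6 and 60.8 CPM (-0.48, SE 0.12, adjusted p = 0.0329), with an adjusted p of 0.118, 0.0966, 0.127 and 0.0761 without control injured 1, control injured 2, RaptorKO injured 1 and RaptorKO injured 3. The number of called genes was 4 without RaptorKO injured 1, and without single libraries the log2 fold changes stayed between -0.89 and -0.64 for Cdh19, -0.49 and -0.46 for Cadm1 and -0.58 and -0.4 for Cdh2.

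Cadm3 alone among the 10 genes was higher in each RaptorKO injured library than in each control. It had 79.7, 102 and 80.7 CPM there and at most 74.1 CPM in controls, without being called (log2 fold change 0.49, SE 0.15, adjusted p = 0.0697). Of 13 alternatives 4 called it: DESeq2 (adjusted p = 0.0312), the exact test of edgeR (0.0321), 1 fit of all 13 libraries (0.0387) and no count filter (0.0061). Without single libraries its log2 fold change was 0.36 to 0.61, and the highest adjusted p was 0.23, without control injured 3. L1cam had 203, 199 and 162 CPM (0.06, SE 0.12, adjusted p = 0.841) and Cdh1 8.57, 10.3 and 11.2 CPM (0.03, SE 0.21, adjusted p = 0.969), and both overlapped the controls.

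**Figure D3:**
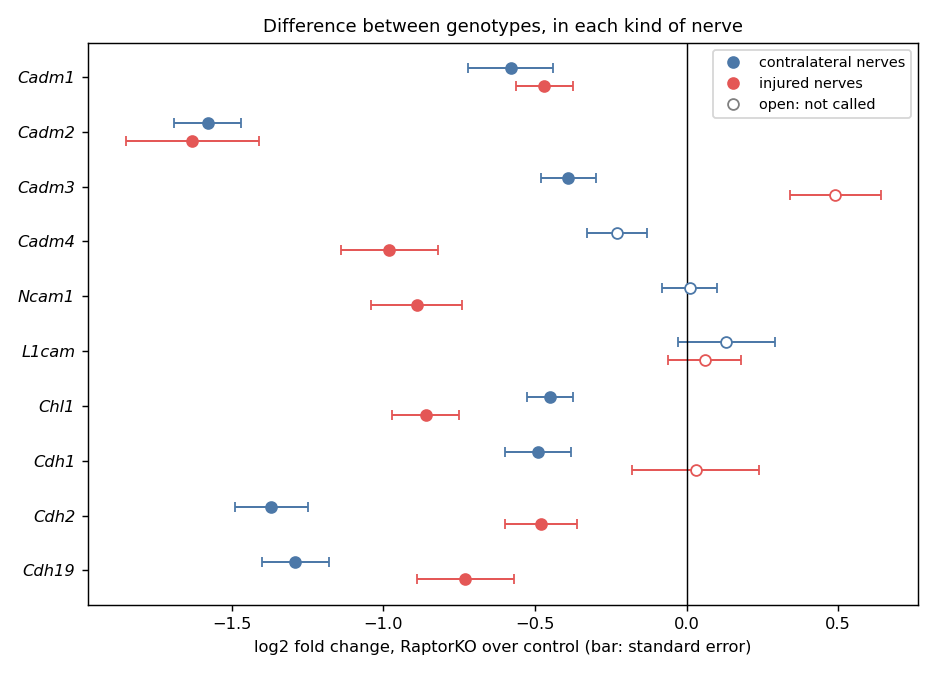
Log2 fold change of RaptorKO over control (x axis; points with SE) for the 10 genes in contralateral (blue) and injured nerves (red), with open points for genes that were not called. Cadm2 lies near -1.6 in both kinds of nerve, Ncam1 and Cadm4 are lower in injured nerves than in contralateral ones, and Cdh2 and Cdh19 lie farther to the left in contralateral nerves.

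Whether the genotype difference itself differed between injured and contralateral nerves was tested with an interaction term in 1 fit of the 13 libraries. Of the 10 genes 1 was called lower and 2 higher, where 1.41% of 12851 tested genes were called lower and 1.07% higher. Ncam1 had an interaction of -0.9 on the log2 scale (SE 0.18, adjusted p = 0.0165), so that its level fell more after crush in RaptorKOs. Cdh2 had an interaction of 0.89 (SE 0.18, adjusted p = 0.0181) and Cadm3 one of 0.88 (SE 0.18, adjusted p = 0.0213). Cadm3 thus fell less after crush in RaptorKOs. Cdh2 fell after crush in controls and was not called in RaptorKOs (log2 fold change 0.03, SE 0.14). Its level in RaptorKOs was already below that of controls in contralateral nerves.

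Of these calls, that of Ncam1 held without any single library. The interaction of Cdh2 was no longer called when control injured 2 was left out (0.86, adjusted p = 0.052) or control contralateral 2 (0.87, adjusted p = 0.0529). For Cadm3 this was so with the same libraries (0.89, adjusted p = 0.052, and 0.86, adjusted p = 0.0612) and with control contralateral 1 (0.87, adjusted p = 0.0559). The number of calls was 1 without control injured 2 or control contralateral 2 and 0 without both libraries of control replicate 3, where Ncam1 had an interaction of -0.93 (adjusted p = 0.0641).

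Cadm4 did not pass the test (interaction -0.75, SE 0.2, adjusted p = 0.0649) but was called without control injured 1 (-0.87, adjusted p = 0.0405) and also when RaptorKO injured 1 was left out (-0.88, adjusted p = 0.0489). It was also called with DESeq2 (-0.77, adjusted p = 0.00484) and with no count filter (-0.75, adjusted p = 0.0146). A block of genotype with replicate number gave a call too (-0.79, adjusted p = 0.0381). The interaction was 0.55 for Cdh19 (SE 0.2, adjusted p = 0.209) and -0.41 for Chl1 (SE 0.13, adjusted p = 0.115). It was 0.52 for Cdh1 (SE 0.18, adjusted p = 0.174), 0.11 for Cadm1 (SE 0.17, adjusted p = 0.847), -0.05 for Cadm2 (SE 0.18, adjusted p = 0.952) and -0.06 for L1cam (SE 0.21, adjusted p = 0.943). The interaction of Chl1 was called with DESeq2 (-0.43, adjusted p = 0.0336) and by no other alternative, and that of Cdh19 by none.

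Ratios between related genes in the same library do not depend on the scaling of that library. They are ratios of CPM, not per length, so only their change between libraries is described, with no test. The log2 ratio of Cdh2 to Cdh1, of N-cadherin over E-cadherin transcripts, turned from -1.09 ± 0.06 in control contralateral to 3.25 ± 0.01 in control injured nerves (SD, n = 3 each). RaptorKOs were lower in both kinds of nerve, at -1.96 ± 0.21 (n = 4) and 2.75 ± 0.27 (n = 3), without overlap with controls. The ratio of Cadm4 to Cadm3 was -0.1 ± 0.09 and 0.07 ± 0.1 in control and RaptorKO contralateral nerves, which overlapped. It was 2.53 ± 0.42 in control and 1.06 ± 0.32 in RaptorKO injured nerves, which did not. Chl1 over L1cam was 0.71 ± 0.03 in control and -0.2 ± 0.26 in RaptorKO injured nerves, and in contralateral nerves it was 0.8 ± 0.22 and 0.25 ± 0.24. Cdh19 over Cdh2 overlapped between genotypes in both kinds of nerve, at 2.59 ± 0.25 in control and 2.34 ± 0.12 in RaptorKO injured nerves and 1.61 ± 0.14 and 1.7 ± 0.12 in contralateral nerves.

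**Figure D4:**
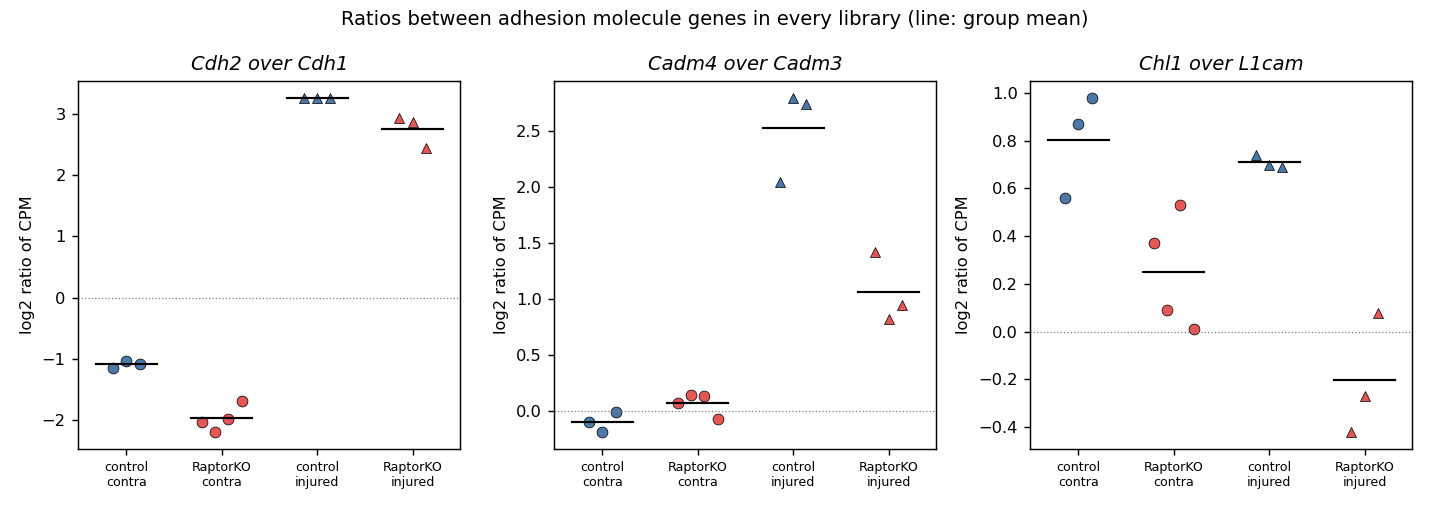
Log2 ratio of CPM between pairs of the genes in each library (points; circles are contralateral and triangles injured nerves; blue are controls and red RaptorKOs) with the group mean (line). Cdh2 over Cdh1 lies below 0 in the 7 contralateral and above 0 in the 6 injured libraries, and the injured RaptorKOs lie below the injured controls for the 3 ratios plotted.

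General SC markers moved with genotype as well. In contralateral nerves S100b (-0.93), Mitf (-0.54) and Erbb3 (-0.43), 3 of 5 pan-SC genes, were called lower in RaptorKOs, while Foxd3 (-0.34) and Sox10 (-0.25) were not. The 5 genes summed to 1080 to 1340 CPM in RaptorKO and 1850 to 1890 CPM in control contralateral nerves. In injured nerves S100b (-1.09) was called lower, 1 of 5, and the sums were 787 to 1060 CPM in RaptorKOs and 1250 to 1350 CPM in controls. In injured nerves 3 of 7 nonmyelinating SC genes were called lower (Gfap -2.89, Scn7a -1.48, Igfbp5 -0.95) and 0 higher. The cell cycle list had 9 of 10 called lower there. Other lists of SC state had few calls in injured nerves. Of 8 tested immature and repair SC genes 0 were called, but 7 had a log2 fold change below 0. This list summed to 787 to 976 CPM in RaptorKO and 975 to 1040 CPM in control injured nerves. Olig1, which did not pass the count filter, averaged 0.317 CPM in RaptorKO and 1.65 CPM in control injured nerves. Of 10 myelinating SC genes 1 was called lower and 1 higher. In contralateral nerves the nonmyelinating SC genes went both ways, with 2 of 7 called lower and 1 higher. Of 6 immature and repair SC genes 0 were called there, and 1 of 10 myelinating SC genes was lower. Markers of other cells also moved: 6 of 8 endothelial and 5 of 6 mast cell genes were called higher in RaptorKO injured nerves, and 5 of 8 macrophage, 3 of 7 endoneurial fibroblast and 2 of 5 mast cell genes in RaptorKO contralateral nerves. The part of these shifts in the adhesion genes was not tested.

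The members were also set against Sox10, a transcription factor of the SC lineage, in the same library, a step chosen after the data were seen. Of the 5 pan-SC genes, Sox10 had the smallest genotype difference in contralateral nerves (-0.25, against -0.93 for S100b). In injured nerves Mitf (17 CPM in controls, 14.4 CPM in RaptorKOs) differed by a smaller ratio than Sox10 (439 and 353 CPM). The counts below depend on this reference, and other references were not tested. Relative to Sox10, Cadm2 was below the controls without overlap in contralateral (difference of mean log2 ratios -1.33) and injured nerves (-1.31). Without overlap, Cdh2 (-1.12), Cdh19 (-1.03), Cdh1 (-0.24) and Cadm3 (-0.14) were lower and L1cam (0.36) and Ncam1 (0.27) higher in RaptorKO contralateral nerves, which made 5 genes lower, 2 higher and 3 overlapping, where 2.87% of all tested genes were lower and 27.7% higher without overlap on this scale. In injured nerves Cadm4 (-0.66) and Ncam1 (-0.57) were lower and Cadm3 (0.81) and L1cam (0.37) higher without overlap, which made 3 lower, 2 higher and 5 overlapping, against 2.23% lower and 26.2% higher of all tested genes. Cadm1 overlapped the controls in both kinds of nerve on this scale (-0.33 and -0.16), as did Chl1 (-0.19 and -0.54).

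Genes that act with these adhesion molecules were counted in the same fits. Of 14 tested genes for intracellular partners of Cadm proteins, 0 were called in injured and 1 in contralateral nerves, the Rac activator Tiam1 (log2 fold change -0.61). Of the catenin and cadherin anchoring genes, 1 of 11 was lower in injured nerves (Ctnna1, alpha-catenin, -0.37) and 4 of 13 in contralateral nerves, led by Arvcf (-0.60), Ctnnal1 (-0.40) and Adam10 (-0.37), the last of which encodes a protease that sheds cadherins. None of either list was higher. Of genes that modify or anchor NCAM and L1, Prnp (prion protein, -0.87) and Ank3 (ankyrin G, -0.53) were lower in injured nerves, 2 of 14. In contralateral nerves Prnp (-0.81), Ank3 (-0.53) and Ank2 (-0.43) were lower and Fgfr1 (0.40) higher, 4 of 13.

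Other adhesion genes of the same superfamilies went both ways. Of other immunoglobulin-type genes 1 of 28 was lower in injured nerves (Jam3, -0.62) and 3 were higher, the endothelial gene Icam2 (1.38), Jam2 (0.71) and Nfasc (0.47). In contralateral nerves Cntn1 (-0.79), Sdk1 (-0.52) and Jam3 (-0.51) were lower and Igsf8 (0.66) and Mcam (0.57) higher, 5 of 32. Of 4 other classical cadherin genes tested, 1 was called in injured nerves, the endothelial cadherin gene Cdh5 (0.78), and 0 in contralateral nerves. The median log2 fold change of the 5 lists lay between -0.08 and 0.25 in injured and between -0.14 and 0.13 in contralateral nerves, where the 10 adhesion genes had -0.61 and -0.47. The same medians in injured and contralateral nerves were -0.28 and -0.43 for the pan-SC genes and -0.73 and 0.3 for the nonmyelinating SC genes. For the myelinating SC genes they were -0.08 and -0.26, and for the immature and repair SC genes -0.2 and 0.21. Lower medians were thus not particular to the 10 genes.

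Genes with the most similar pattern were sought for each of the 9 genes called between genotypes or in the interaction, by Pearson's r of log2 CPM over the 13 libraries among 12835 genes. The libraries form an injured and a contralateral set, so that genes with a large crush response share that step. For Cadm2 these were Prnp (r = 0.995), Shroom2 (0.992) and Hsbp1 (0.988), for Cadm3 Col23a1, Sptbn5 and Sema6c (0.998 each), and for Cadm4 Emp2 (0.993), Sorcs1 (0.991) and Clmn (0.989). Cdh1 was closest to Prrg3, Col23a1 and Ndrg1 (0.998 each), and Cadm1 to Npl (0.985), Spata13 (0.983) and Vps50 (0.981). Ncam1 was closest to Celsr2 (0.978), Plch1 (0.977) and Gpr37l1 (0.973), and Chl1 to Arl6ip1 (0.949), Rtn4 (0.949) and Ckap5 (0.936). For Cdh2 the closest were Nipal3 (0.972) and Pex5l (0.93), and for Cdh19 Entpd7 (0.967), Spata6 (0.958) and Adamts5 (0.955).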

How the data were processed

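Whole-nerve RNA was sequenced in 13 libraries. The authors trimmed reads with Trimmomatic, aligned them to GRCm38 and deposited RSEM 1.2.22 expected counts per gene, which share out reads that match several genes, so genes that overlap are named where reported. Whether counting used strand is not given in the sources used here. Expected counts were rounded. Genes with 50 counts or more in 2 or more libraries of a comparison were tested in R 4.3.3 with the quasi-likelihood test of edgeR 4.0.16 (TMM factors, libraries as independent) and called at a Benjamini-Hochberg adjusted p below 0.05 over all tested genes with a fold change above 1.2. The labels number the libraries, and equal numbers of injured and contralateral nerves may mark 1 mouse, which is not stated, so p-values measure the spread between these libraries. DESeq2 1.42.0 and the study's exact test were alternatives. The tests were tried on simulated data. Groups came from the sample labels, and exon lengths from GENCODE M21. RefSeq windows were found for 5 of the 10 genes. The members, gene lists and tests were chosen with earlier results of these data known. All 10 genes are named, the 3 largest called genes per list, direction and genotype comparison, and the 3 genes most alike each called member, of which 1 is not reported here.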

Additional observations from a re-analysis of the deposited data

Results flagged for a closer look

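The genotype difference was not the same in injured and contralateral nerves for 3 genes, by the test of the interaction of genotype and injury. The interaction on the log2 scale was 0.88 for Cadm3, -0.9 for Ncam1 and 0.89 for Cdh2. For Cadm3 the RaptorKO libraries were below the controls in contralateral nerves and above them in injured nerves. The injured difference of Cadm3 was not called (adjusted p = 0.0697, quasi-likelihood test). Ackr1, which shares exon bases with Cadm3, lay on the same sides without overlap, and the part of shared reads was not tested. For Ncam1 the RaptorKO libraries overlapped the controls in contralateral nerves and were below them in injured nerves. For Cdh2 they were below the controls in both.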

How the results depend on the processing

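Counts of called members after crush stayed at 9 in controls under the 14 alternatives and at 8 or 9 in RaptorKOs under 14. The share of all tested genes called under each alternative, the replicate block included, is not given here. The counts of members therefore describe how the calls moved and are not set against that share. At an adjusted p below 0.01, 4 members were called between genotypes in injured and 4 in contralateral nerves, and 0 in the interaction. Leaving out 1 library gave 4 to 7 in injured and 4 to 8 in contralateral nerves and 1 to 4 in the interaction, and the interaction had 5 with DESeq2 and 0 without both libraries of control replicate 3. Of 740 single-gene values, 676 kept their direction and side of the threshold, 35 lost a call, 12 gained one and 17 changed sign.

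All values that changed sign were of uncalled genes near 0, and the cause was not tested. With 1 library left out, Cdh2 after crush in RaptorKOs ranged from -0.07 to 0.15. Between genotypes, Cdh1 ranged from -0.05 to 0.12 and L1cam from 0.00 to 0.16 in injured nerves, and Ncam1 from -0.03 to 0.08 in contralateral nerves. The interaction ranged from 0.00 to 0.2 for Cadm1, from -0.15 to 0.05 for Cadm2 and from -0.18 to 0.03 for L1cam.

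Equal replicate numbers may mark paired nerves. The r of deviations was 0.07 to 0.30 for equal and -0.23 to 0.14 for unequal numbers between control injured and contralateral nerves, -0.02 to 0.21 and -0.30 to 0.14 between RaptorKO injured and contralateral nerves, 0.07 to 0.30 and -0.36 to 0.10 between contralateral genotypes and -0.05 to 0.03 and -0.20 to 0.19 between injured genotypes. Not every equal pair exceeded 0.1, but this cannot show that the libraries are independent. The libraries were treated as independent because no source states that equal numbers mark 1 mouse. The study describes the contralateral nerves as those corresponding to the injured ones, so the crush and interaction tests may ignore a pairing. With a block, 9, 8, 7, 7 and 4 members were called in the 5 comparisons in the order of the report's tests (crush in controls, crush in RaptorKOs, injured genotypes, contralateral genotypes, interaction). The block was the replicate number in the pairwise comparisons and genotype with replicate number in the interaction. Between genotypes equal numbers mark different mice, so the block there cannot test pairing. The block turned the contralateral value of Ncam1 to -0.04 and the interactions of Cadm2 and L1cam to 0.01 and 0.04, and with it Cadm4 was called in the interaction (-0.79).

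With 3 or 4 libraries per group, small differences are not resolved, and an uncalled gene is not shown to be equal.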
